A study of Homo sapiens with 11 samples.

Results

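The binding of the glucocorticoid receptor (GR) and the distribution of SUMO-2/3, both mapped by chromatin immunoprecipitation and sequencing (ChIP-seq), were examined at 5 loci of cell cycle control: CDKN1A, CDKN1B, CDKN1C, CCND1 and MYC. Every deposited site with at least 1 base within 100 kb of the gene's start was a member. The starts in the hg19 build, each rounded to 1 kb, were 36646000 on chromosome 6 for CDKN1A, 12870000 on chromosome 12 for CDKN1B, 2907000 and 69456000 on chromosome 11 for CDKN1C and CCND1, and 128748000 on chromosome 8 for MYC. Distances below are from these rounded positions, so a gene's own start may lie up to 500 bp to either side of them, and a distance under 500 bp fixes no side. The windows held 25 of the 51024 listed sites: 6 of 11259 GR sites in the line with wild-type GR, 5 of 18856 GR sites in the line with the SUMOylation-defective receptor GR3KR (the 3KR line), 0 of 1016 GR sites in the FRT control line without a GR transgene, and, for SUMO-2/3, 6 of 12109 wild-type and 8 of 7784 3KR sites.

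All groups were HEK293 cells, a human embryonic kidney line, made isogenic with the Flp-In system, in which a transgene is placed at 1 prepared genomic position. All were held for 72 h in medium stripped of steroids and then given 100 nM of dexamethasone, a synthetic glucocorticoid, for 1 h, the control line included. GR and SUMO-2/3 were mapped in 2 libraries each for either transgenic line, and in the control line only GR was, in 1 library. Each line is 1 cell population and no sample without dexamethasone is among the groups, so the maps describe treated cells only. Both libraries of a group are listed at the same site positions, so a number of sites is 1 value per group with no replicate error, whereas tags and fold enrichment have 1 value per library. Tags are the reads in the library's own peak, and fold enrichment is the authors' ratio to the peak caller's background. Listed peaks held 208776 tags in the control library and between 1109129 and 4600440 in the others, each peak counted once. Every listed peak had more than 50 tags, a fold above 8 and a false discovery rate under 10 percent. Tags are not scaled between libraries, so their order across libraries also reflects depth, and comparisons between lines rest on the centred ratios given last.

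GR is a steroid-activated transcription factor that binds DNA at promoters and distal enhancers, and glucocorticoids slow the division of many cell types. SUMO-2 and SUMO-3 are small proteins that enzymes couple to lysine side chains of nuclear proteins, including GR. CDKN1A, CDKN1B and CDKN1C encode the 3 members of the Cip/Kip family, which bind and inhibit cyclin-dependent kinases. CCND1 encodes cyclin D1, which activates such kinases early in the cell cycle, and MYC encodes a transcription factor that promotes growth and division.

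The lists differed in how many of the 5 loci they reached. In the wild-type line all 5 windows held a GR site, against 35.8% of the 15149 windows of the same length (200001 bp) tiled over the genome. In the 3KR line 3 of 5 windows did (CDKN1A, CDKN1B and MYC; 48.2% of tiled windows), and in the control line 0 of 5 did (5.57%). SUMO-2/3 sites lay in 3 of 5 windows in the wild-type line (CDKN1A, CDKN1B and MYC; 36.2% of tiled windows) and in 4 of 5 in the 3KR line, with CCND1 in addition (29.6%). Tiled windows also cover stretches without genes or mappable sequence, so these shares describe the lists and are no test of the loci. The counts also depended on the width of the window: within 200 kb of the starts the wild-type line had 12 and the 3KR line 21 GR sites. They depended on the listing limits as well: with a fold of at least 12, or at least 100 tags, in every library, all 4 lists of the transgenic lines reached 3 loci, CDKN1A, CDKN1B and MYC. The wild-type and 3KR GR lists reached 2 and 3 loci within 50 kb and 5 and 4 within 200 kb.

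**Figure D1:**
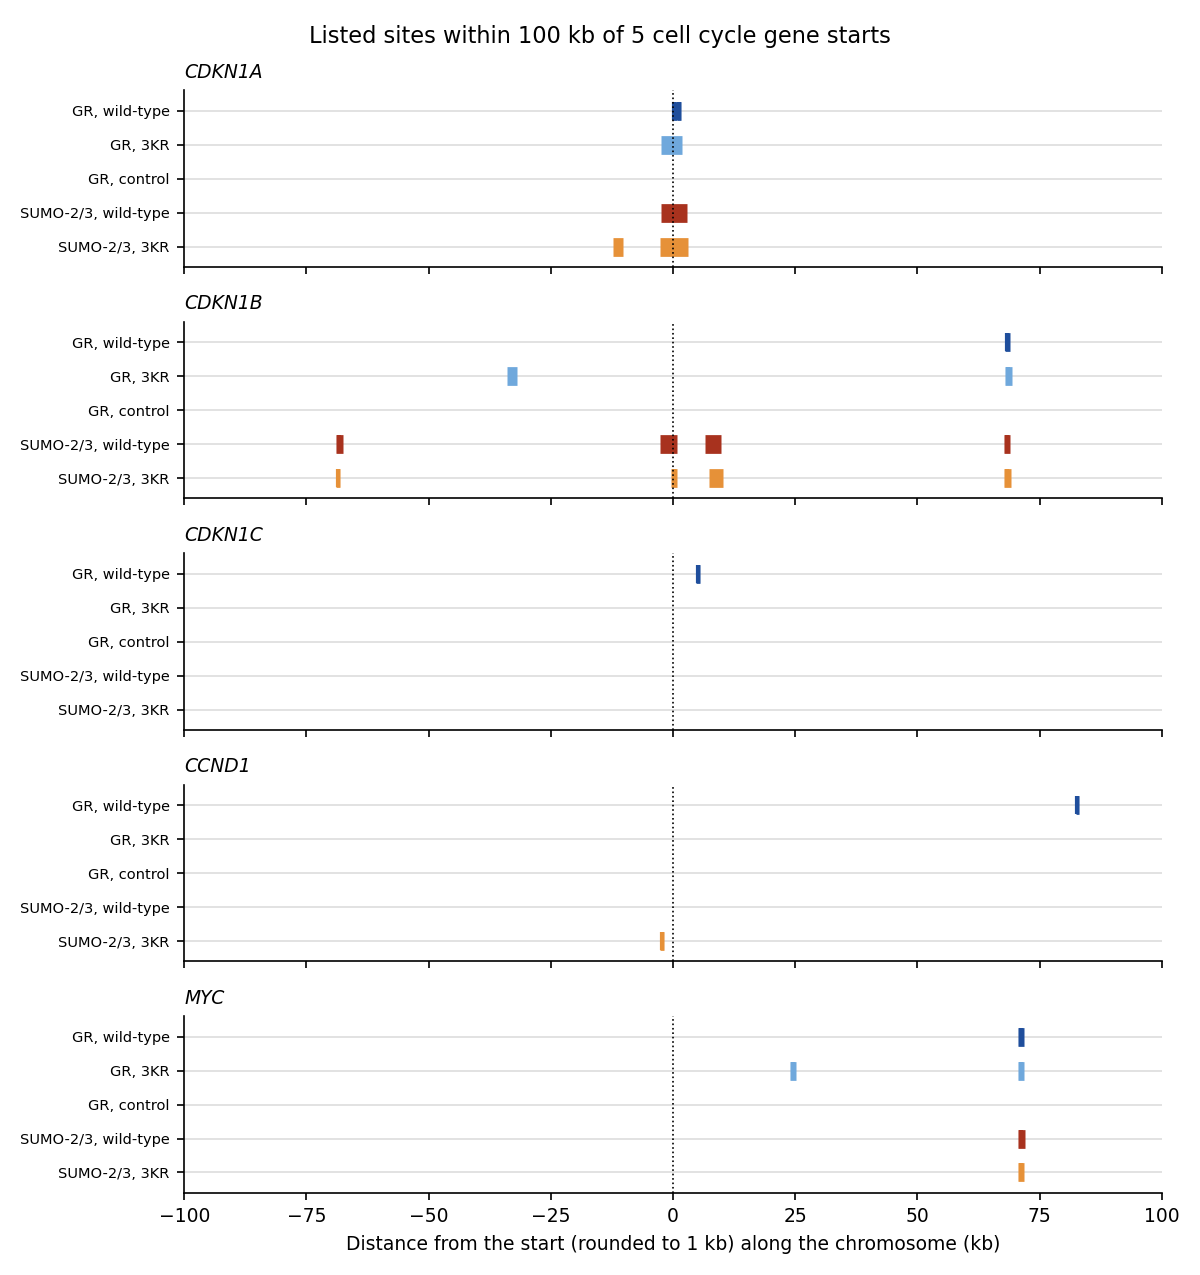
Position of every listed site (coloured bars, to scale, with a minimum drawn width) within 100 kb of each start, as distance along the chromosome in kb, with 1 row per group. GR and SUMO-2/3 coincide over the CDKN1A start, 68 kb beyond the CDKN1B start and 71 kb beyond the MYC start, and the control row holds 0 sites; the 2 neighbouring wild-type GR sites at CDKN1A appear as 1 bar.

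Shared sites made up most of the members. Of the 6 wild-type GR sites, 4 overlapped a 3KR GR site by at least 1 bp (88.9% of the whole wild-type list did), and 3 of the 5 GR sites of the 3KR line were shared in the other direction (53.0% of that list). None of the 11 GR sites overlapped a control-line site, compared with 7.49% of all wild-type and 4.79% of all 3KR sites. For SUMO-2/3, 6 of 6 wild-type sites overlapped a 3KR site (47.7% of the list) and 6 of 8 3KR sites a wild-type one (74.7%). With members this few, and chosen by locus, the shares were not tested.

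GR and SUMO-2/3 met at the same 3 loci in both lines. SUMO-2/3 lay on 4 of 6 wild-type GR sites (37.4% of the whole list) and on 3 of 5 3KR GR sites (15.6%). Seen from SUMO-2/3, 3 of 6 wild-type sites carried GR (34.3%), and so did 3 of 8 3KR sites (37.6%). The joint regions were the start of CDKN1A, a region 68 kb beyond the start of CDKN1B and a region 71 kb beyond the start of MYC. The 4 GR sites listed in 1 line alone, at CDKN1B, CDKN1C, CCND1 and MYC, had no SUMO-2/3 site in either line. Of all wild-type GR sites 37.4%, and of all 3KR GR sites 15.6%, had one in their own line, so most had none. The 4 sites thus show no trait particular to sites listed in 1 line alone. The share among all GR sites listed in 1 line alone was not computed.

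The promoters of CDKN1A and CDKN1B are shown because SUMO-2/3 sites of both lines span the rounded start of either gene, and GR sites span that of CDKN1A. These 2 of the 5 genes were matched by symbol in the RefSeq promoter table (build GRCh38.p14), which gives 250 bases before and 50 bases from the annotated start. The CDKN1A window is chr6:36678464-36678763 and the CDKN1B window chr12:12717118-12717417, both on the plus strand, printed 5′ to 3′ with the 50 bases from the start in capitals. The sites are in hg19, so the window was not placed inside them.
CDKN1A: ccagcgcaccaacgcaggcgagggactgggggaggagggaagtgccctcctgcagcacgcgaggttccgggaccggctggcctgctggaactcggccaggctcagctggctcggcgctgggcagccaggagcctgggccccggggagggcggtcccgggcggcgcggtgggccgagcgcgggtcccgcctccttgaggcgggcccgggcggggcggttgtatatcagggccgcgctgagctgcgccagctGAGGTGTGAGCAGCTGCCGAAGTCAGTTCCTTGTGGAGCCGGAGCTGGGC
CDKN1B: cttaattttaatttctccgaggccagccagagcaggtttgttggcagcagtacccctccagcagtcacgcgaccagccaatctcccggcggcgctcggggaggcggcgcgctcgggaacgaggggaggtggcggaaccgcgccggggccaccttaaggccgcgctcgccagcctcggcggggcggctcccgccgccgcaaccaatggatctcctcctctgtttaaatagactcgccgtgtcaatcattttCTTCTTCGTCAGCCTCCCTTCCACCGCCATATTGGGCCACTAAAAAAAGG

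Both promoters are rich in CpG. The CDKN1A window has 74.3% G or C and 29 CpG, the CDKN1B window 62.3% and 29, and the median of all 35116 promoters in the table is 58.7% and 14. Neither window held the palindromic GR element (GNACA and TGTNC separated by 3 bases of any kind), which 0.39% of all promoters hold. The shorter receptor motif AGAACA, which 14.8% of all promoters hold on either strand, and the AP-1 element TGANTCA, which 7.71% hold, were also absent from these letters. Both strands were searched; the shorter motif can overlap the full element.

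CDKN1A, the Cip/Kip inhibitor induced by many stress and differentiation signals, was the only one of the 5 genes with GR over its rounded start, and it had the broadest sites among the members. In the wild-type line GR was listed at chromosome 6 from 36645751 to 36646734 and from 36646820 to 36647722. Library 1 had 121 and 134 tags there (fold 11.9 and 12.3), in separate peaks of 984 and 903 bp. In library 2 both sites were listed with identical values, read here as a single peak of 3069 bp with 933 tags (fold 28.4). Both sites overlap the single 3KR site, from 36643495 to 36647857, which had 838 tags (fold 24.8) in library 1 and 1347 tags (fold 38.5) in library 2.

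The duplicates of both lines disagreed on the strength of GR at this start. In library 1 these sites lay at the 73.7 and 71.2 percentiles from the top of the list by fold, so among the weaker sites, and in library 2 at 6.35. In the 3KR line the percentiles were 34.6 and 2.28. The gap between wild-type libraries, 1.08 on the log2 scale after removing the median gap of all shared regions, was exceeded at 4.40% of those regions, and the gap between 3KR libraries, 0.91, at 2.77%. The 3KR site, 4363 bp wide, was in the widest 0.419% of its list, but the wild-type sites (47.8 and 65.2 percentiles by width) were not unusually wide.

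SUMO-2/3 covered the CDKN1A start as 1 broad site in both lines. The wild-type site ran from 36643629 to 36648895 (5267 bp, widest 0.628% of the list) with 738 and 1448 tags in libraries 1 and 2. The 3KR site ran from 36643371 to 36648988 (5618 bp, widest 0.565%) with 720 and 1823 tags. The groups' unscaled tags overlapped, whereas the centred log2 ratios of all pairs were negative (-0.87 to -0.19). Fold was 15.6 and 23.3 in the wild-type and 13.0 and 24.4 in the 3KR libraries. A second SUMO-2/3 site, 10.2 kb before the start (36633633 to 36635773), was listed in the 3KR line alone with 305 and 610 tags. It was a weak site by fold (9.46 and 12.3, the 70.2 and 78.0 percentiles) but a well-covered one by tags (6.74 and 9.15).

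The point of highest signal could be placed exactly where a library's own peak was as long as the listed site, and otherwise within a range. In wild-type GR library 1 the summits lay at 36646242 and 36647355, and in 3KR GR library 1 the summit lay at the same base as the latter. SUMO-2/3 summits fell close to that base in 3 of 4 libraries, between 36647297 and 36647357 and between 36647353 and 36647382 in wild-type libraries 1 and 2, and between 36647205 and 36647424 in 3KR library 2. The exception was 3KR library 1, whose SUMO-2/3 summit lay at 36648370, 1015 bp from that shared GR summit. The offset may be counted from 0 or 1, which would shift all positions by 1 bp alike.

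**Figure D2:**
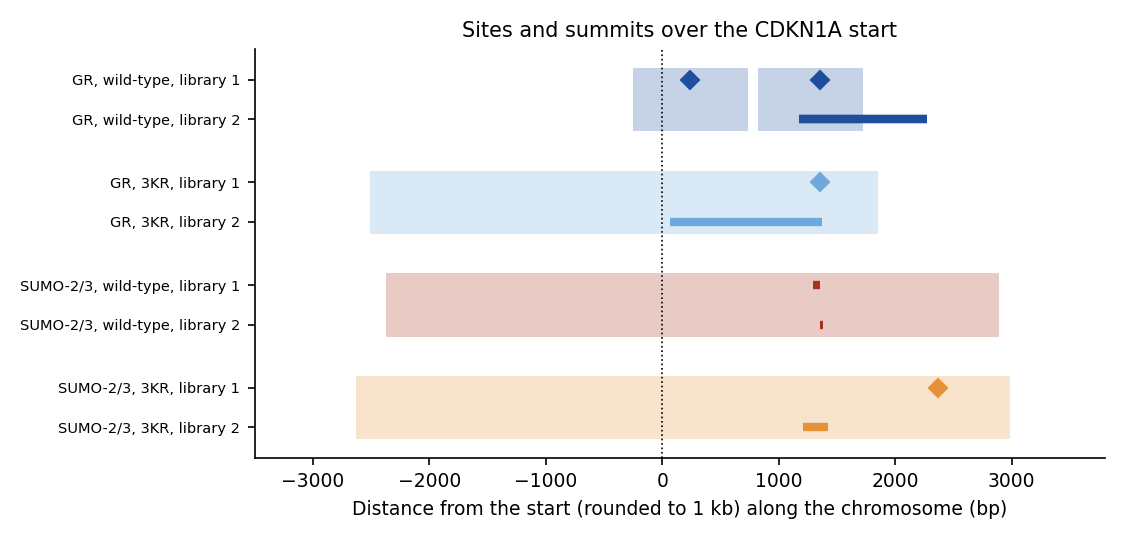
Listed sites (shaded) and peak summits per library over the CDKN1A start, as distance in bp from the start rounded to 1 kb (36646000); diamonds are exact summits and bars the range a summit can lie in. The position at 1355 bp on this axis (36647355) is an exact summit, or lies within the range, in 4 of 4 GR libraries and 3 of 4 SUMO-2/3 libraries. In GR library 2 the range is wide, 1176 to 2273 bp in the wild-type and 63 to 1372 bp in the 3KR line, so it hardly places the summit.

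CDKN1B, the Cip/Kip inhibitor that holds quiescent cells out of division, had the most sites of the 5 loci, and most were SUMO-2/3. In the wild-type line 4 SUMO-2/3 sites lay in its window, and in the 3KR line 4 lay at the same places. Windows with at least 4 sites made up 5.96% of tiled windows for the wild-type and 2.22% for the 3KR list. GR was listed at 1 place in the wild-type and at 2 in the 3KR line, none of them at the start. GPR19, an orphan receptor gene, and APOLD1 are the protein-coding neighbours of CDKN1B by order in RefSeq. Sites were not placed against the starts of these neighbours. A site away from the CDKN1B start may therefore lie nearer to the start of another gene.

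Over the CDKN1B start, SUMO-2/3 was listed without GR in both lines. The wild-type site (12867243 to 12870744) had 330 and 641 tags, with fold 14.7 and 20.6. The 3KR site (12869677 to 12870739) had 116 and 637 tags, with fold 10.4 and 19.8, so the weak value was that of 1 library. Own peaks were 3502 and 4202 bp long in the wild-type and 1063 and 3982 bp in the 3KR libraries. The exact summits, in library 1 of either line, lay at 12870180 and 12870178, 2 bp apart.

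A further SUMO-2/3 site without GR lay 6.51 kb beyond the CDKN1B start in the wild-type line (12876506 to 12879846) and at 7.41 kb in the 3KR line (12877410 to 12880298). It had 463 and 789 tags in the wild-type and 376 and 997 tags in the 3KR libraries, and both sites were in the widest 5 percent of their lists (3.06 and 4.66). By unscaled tags the 3KR libraries were the lowest and the highest of the 4, whereas the centred log2 ratios of all pairs were negative (-0.67 to -0.13). On the other side, 67.6 kb before the start, a smaller SUMO-2/3 site (12800996 to 12802450) had 118 and 165 tags in the wild-type line. Its 3KR counterpart, 818 bp wide (12801013 to 12801830), had 87 and 111 tags, below both wild-type values before centring. The centred log2 ratios ran from -0.28 to 0.53. The fold of the 3KR site was 12.65 and 16.4 and that of the wild-type site 9.38 and 14.4, so the values of the groups overlapped.

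Among the member GR sites of either line, the strongest by mean fold percentile lay 67.9 kb beyond the CDKN1B start. GR was listed from 12937868 to 12938913 in the wild-type line, with 311 and 547 tags and fold 42.2 and 31.9. It was listed from 12937868 to 12939358 in the 3KR line, with 475 and 428 tags and fold 47.2 and 36.9. All 4 GR libraries had it in the strongest 6 percent of their list by fold, at percentiles of 3.96 and 3.63 in the wild-type and 5.11 and 2.87 in the 3KR line. In 3KR library 2 alone the CDKN1A site ranked higher by fold (2.28). By tags it did so in both 3KR libraries, at 1.67 and 0.302 against 9.89 and 9.90. The wild-type CDKN1A sites did so in library 2 (2.64 against 10.8) but not in library 1 (54.7 and 48.6 against 9.67). The MYC region ranked above the CDKN1B one by tags in all 4 GR libraries. The unscaled 3KR tags lay between the wild-type ones, whereas the centred log2 ratios of all pairs were positive (0.18 to 0.26).

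SUMO-2/3 lay on this region in both lines. The wild-type site (12937732 to 12939049) had 315 and 452 tags with fold 33.6 and 39.0, at percentiles of 2.67 and 3.10. The 3KR site (12937621 to 12939065) had 219 and 308 tags, both below the wild-type values before centring. The centred log2 ratios ran from -0.16 to 0.47. Its fold was 13.2 and 26.4, at percentiles of 29.2 and 12.1. By their mean it ranked below the 3KR SUMO-2/3 site at MYC (20.6 against 16.3). Exact summits were at 12938413 for wild-type GR library 1, 12938429 for 3KR GR library 2 and 12938420 for 3KR SUMO-2/3 library 2, at most 16 bp apart.

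**Figure D3:**
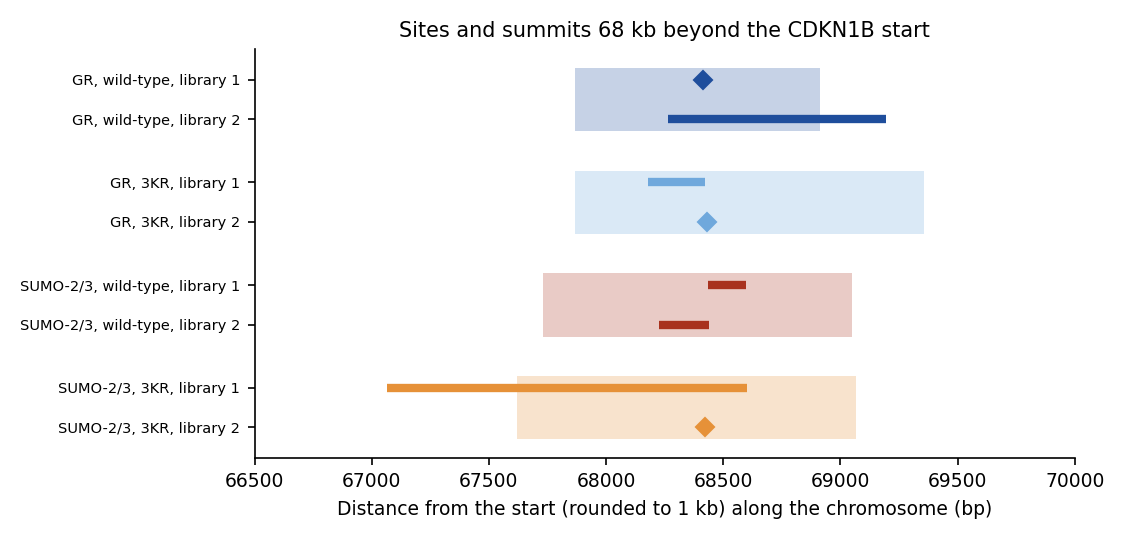
Listed sites (shaded) and summits per library (diamonds exact, bars a range) in the region 68 kb beyond the CDKN1B start, as distance in bp from the start rounded to 1 kb (12870000). The 3 exact summits, of GR in both lines and SUMO-2/3 in the 3KR line, lie within 16 bp, at 68413, 68420 and 68429 bp.

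A second GR site in the CDKN1B window was listed in the 3KR line alone, 32.0 kb before the start (12835966 to 12837996). It had 253 and 277 tags but a fold of only 11.4 and 9.90, the 88.0 and 76.5 percentiles of its list. No SUMO-2/3 site of either line overlapped it.

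CDKN1C, the third Cip/Kip gene, imprinted and transcribed toward lower coordinates, had a single site. Wild-type GR was listed from 2911622 to 2912448, 4.62 kb upstream of the start. Its libraries had 51 and 194 tags and fold 8.99 and 15.3, the 95.0 and 38.7 percentiles, and 51 is the lowest tag count in the library 1 list. The 3KR, control and SUMO-2/3 lists had 0 sites in the window. The nearest 3KR GR site lay just outside it, at 101.94 kb (3008940 to 3010491; 256 and 285 tags), and the nearest SUMO-2/3 sites at 111.90 and 112.03 kb in the wild-type and 3KR lines.

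CCND1 had 2 sites, each listed in 1 group, and neither was strong. Wild-type GR was listed 82.4 kb beyond the start (69538364 to 69539099) with 94 and 115 tags and fold 15.9 and 9.49, the 48.9 and 83.7 percentiles. This was the member nearest to the edge of a window. SUMO-2/3 was listed in the 3KR line 1.78 kb before the start (69453251 to 69454221), with 56 and 153 tags and fold 8.17 and 9.28, at the 96.3 percentile in both libraries. The 3KR GR list had its nearest site 496.35 kb away, and the wild-type SUMO-2/3 list 158.19 kb away.

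MYC had no site over its start in any group. The region shared by all 4 transgene-line groups lay 70.5 kb beyond the start, on chromosome 8 from 128818540 to 128819877 in the wild-type GR list. GR had 381 and 554 unscaled tags in the wild-type (fold 28.7 and 20.7) and 589 and 534 in the 3KR line (fold 34.4 and 26.8). By the centred log2 ratios given last, wild-type library 1 was above both 3KR libraries (0.24 and 0.16). Wild-type library 2 was below both (-0.03 and -0.12). By fold the percentiles ran from 10.4 to 18.9 over these 4 libraries. SUMO-2/3 had 254 and 398 tags in the wild-type (128818514 to 128819995) and 184 and 376 tags in the 3KR line (128818623 to 128819893), at percentiles between 12.4 and 20.3.

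Nearer to MYC, at 24.01 kb, GR was listed in the 3KR line alone (128772007 to 128773233). The site had 145 and 123 tags and fold 11.4 and 8.05, the 88.2 and 99.3 percentiles, so it was one of the weakest sites of its list in library 2.

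**Figure D4:**
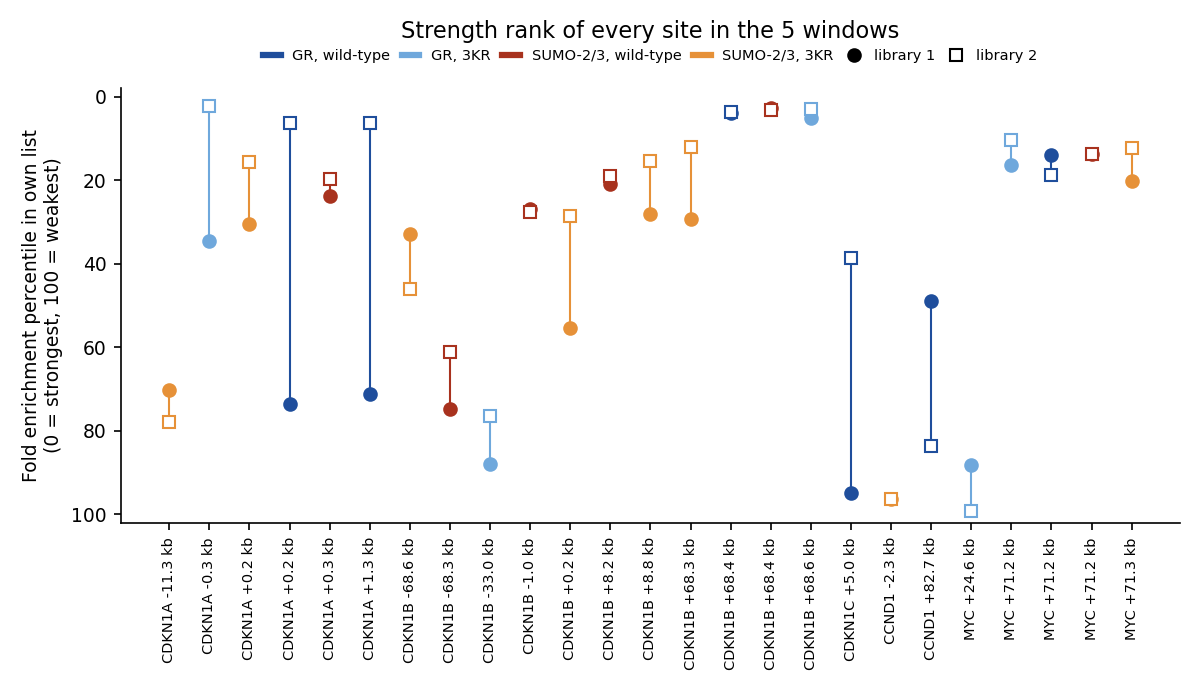
Percentile of each member's fold enrichment in its own list (0 is the strongest, axis inverted), with library 1 as filled circles, library 2 as open squares and colour for the group; names give the locus and the distance of the site's centre from the start. The sites 68 kb beyond CDKN1B and 71 kb beyond MYC rank high in most libraries, the wild-type GR sites at CDKN1A and CDKN1C differ widely between libraries, and CCND1 sites rank low.

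By the mean of both libraries' percentiles, sites listed in 1 line alone were weaker by fold than the shared members of the same list. In wild-type GR library 1 taken alone this order failed: the CCND1 site, at 48.9, stood above both shared CDKN1A sites, at 73.7 and 71.2. The 2 wild-type-only GR sites had mean percentiles of 66.9 and 66.3, and the 4 shared ones between 3.80 and 40.02. The 2 3KR-only GR sites had mean percentiles of 82.2 and 93.7, and the 3 shared ones between 3.99 and 18.5. The 2 3KR-only SUMO-2/3 sites were at 74.1 and 96.3, and the 6 shared ones between 16.3 and 41.9. By mean tag percentile the order held in both GR lists but failed for 3KR SUMO-2/3. There the 3KR-only CDKN1A site, at 7.95, stood above shared sites at 20.8, 21.8, 25.8 and 74.9, and below those at 0.854 and 3.85. The part of the listing limits in these differences was not tested.

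Tags were compared between lines at the 9 regions that were listed in both, 3 for GR and 6 for SUMO-2/3. For each of the 4 pairs of a wild-type and a 3KR library, the log2 ratio was centred on the median of all shared regions (9918 for GR and 5744 for SUMO-2/3). Positive values mean more tags in the wild-type line. Pairs share libraries, so the SD given describes the spread over pairs, and 2 libraries against 2 cannot give an exact permutation p under 0.333. The 5th to 95th percentile of all shared regions ran from -0.80 to 0.94 for GR and from -0.76 to 0.90 for SUMO-2/3, and all 9 members had means inside these ranges.

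Centred on all shared regions, both antibodies had mean ratios below 0 at the CDKN1A start, so relatively fewer tags in the wild-type line. For GR the mean log2 ratio was -0.78 ± 0.81 (SD over 4 pairs), with a range from -1.76 to 0.21, and 94.5% of shared GR regions had a higher mean. The direction turned, to 0.25, when tags were divided by the length of the own peak, which was shortest in wild-type library 1. The value was -0.25 without wild-type library 1, -0.32 without 3KR library 2, -1.30 without wild-type library 2 and -1.23 without 3KR library 1. For SUMO-2/3 the mean was -0.52 ± 0.28, below 0 in 4 of 4 pairs. Chromosome 6 as a whole leaned the same way, with medians of -0.35 for GR and -0.51 for SUMO-2/3. Centred on that chromosome, the values were -0.42 for GR and -0.04 for SUMO-2/3. With fold in place of tags they were -0.26 and -0.07.

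At the region 68 kb beyond CDKN1B the GR ratio was 0.22 ± 0.05, above 0 in 4 of 4 pairs and exceeded at 33.3% of all shared GR regions. The SUMO-2/3 ratio there was 0.16 ± 0.29, and 0.79 with fold and 0.77 with tags per kb in place of tags. Over the CDKN1B start it was 0.38 ± 0.88, from -0.51 to 1.27, and it turned to -0.36 without 3KR library 1, whose 116 tags enter both highest pairs, and was 1.13 without 3KR library 2. With tags per kb it was -0.37. The SUMO-2/3 region 8.4 kb beyond the start had -0.39 ± 0.26, below 0 in 4 of 4 pairs. The region before the start had 0.13 ± 0.37, and -0.48 with fold in place of tags.

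At the distal MYC region the ratios were the nearest to 0 of the 9, with 0.06 ± 0.17 for GR and -0.10 ± 0.04 for SUMO-2/3. Centred on chromosome 8, whose medians were 0.22 and 0.17, they were -0.16 and -0.25.

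**Figure D5:**
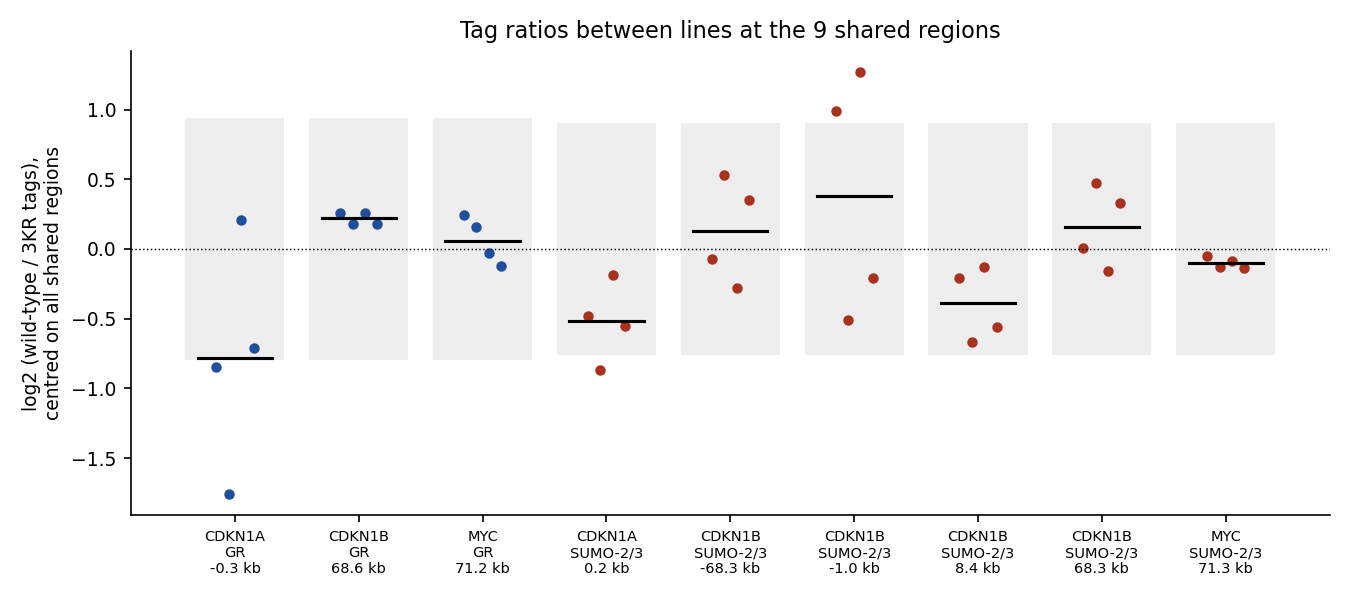
Log2 ratio of wild-type to 3KR tags at the 9 regions listed in both lines, 1 point per pair of libraries (blue for GR, red for SUMO-2/3) with the mean as a black line, centred on the median of all shared regions; grey boxes span the 5th to 95th percentile of those regions. All 9 means lie inside the grey boxes, and the pairs at CDKN1A (GR) and at the CDKN1B start (SUMO-2/3) are the most spread.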

How the data were processed

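Peak lists of 9 of the 11 samples were used; 2 libraries from control cells (input, IgG) were not analysed here, though the series' design names them as controls for GR and SUMO-2/3. Per the submitters' processing notes, the tools were CASAVA and Bowtie 0.12.9 and the build was hg19; how peaks were called is not given in the sources used here. Tag counts (whole reads per peak, not normalized), the fold ratio over background and the FDR in percent are as the authors deposited them. The score column, which the authors deposited under a −log10 p-value heading per the file headers, repeats 1 upper value at many sites and was not used.

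Sites were grouped by sample title, and members were taken by the window rule alone. Members and lists were chosen with earlier results of these data known. Lists were compared by overlap of at least 1 bp. Listed coordinates were taken as the part common to the peaks of both libraries: in 0 cases did they exceed a library's peak length, but no header states this. Between 1.14% and 3.77% of sites in a duplicate library share their peak with another site. For tag ratios, overlapping sites were joined and each library's peak was counted once. Percentiles rank fold within a list. No count model was fitted, because tags refer to each library's own peak. The series' design says biological duplicates and nothing of separate cultures. Scripts ran in Python 3.11.15 with pandas 2.3.3 and were tested on simulated data. Positions count from 1. An hg19 annotation was not used here, so sites are not placed in exons or introns, and the planned list of other cell cycle genes was not applied. Every member site is named. Alternatives were other windows, stricter limits, other overlap rules, other centring and leaving out libraries.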

Additional observations from a re-analysis of the deposited data

How the results depend on the processing

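Of 171 recomputed values of the main results, 139 stayed within 1.5 times (counts) or within the spread between libraries. This tally is no measure of stability. Where the spread is wide it counts a change of sign as staying, as from 0.38 to -0.37 for SUMO-2/3 over the CDKN1B start. It also holds the control line's counts of 0 and a comparison of same-numbered libraries, which by construction hardly moves a mean. Site counts in the windows (wild-type GR, 3KR GR, wild-type and 3KR SUMO-2/3) were 3, 3, 3 and 5 within 50 kb and 12, 21, 14 and 14 within 200 kb. With a fold of at least 12 in every library, GR counts were 3 and 3 and the 3KR SUMO-2/3 count 5. The control line had 0 sites under every setting. Wild-type GR sites shared with the 3KR line numbered 2 with reciprocal overlap of 50 percent and 2 with centres within 500 bp, and 2 carried SUMO-2/3 under the former. Counting the 2 CDKN1A sites as 1, an alternative chosen after seeing the data, left 5 wild-type GR sites, 3 of them shared.

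Centred on the chromosome median, log2 ratios were 0.33 for GR beyond CDKN1B, -0.16 for GR at MYC, -0.04 for SUMO-2/3 at CDKN1A and -0.25 at MYC. With fold in place of tags, they were 0.28 for GR beyond CDKN1B and, for SUMO-2/3, -0.07 at CDKN1A, -0.48, -0.05 and 0.79 at the CDKN1B regions at -68.3, 8.4 and 68.3 kb, and 0.01 at MYC; the direction turned at -68.3 kb and at MYC. With tags per kb, they were 0.25 for GR at CDKN1A, 0.36 for GR beyond CDKN1B and, for SUMO-2/3, -0.28, -0.37 and 0.77 at -68.3 kb, at the CDKN1B start and at 68.3 kb, and -0.16 at MYC; the direction turned at CDKN1A (GR), at -68.3 kb and at the CDKN1B start. The cause of these shifts was not tested. By tags, median percentiles of members were 9.76 and 21.3 for wild-type and 3KR SUMO-2/3, against 20.8 and 31.3 by fold.

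Leaving out 1 library gave ranges of -1.30 to -0.25 (CDKN1A), 0.18 to 0.26 (CDKN1B) and -0.08 to 0.20 (MYC) for GR. For SUMO-2/3 the ranges were -0.71 to -0.34 at CDKN1A, -0.18 to 0.44, -0.36 to 1.13, -0.61 to -0.17 and -0.07 to 0.40 over the CDKN1B regions in order of position, and -0.13 to -0.07 at MYC. The negative ends at -68.3 and 68.3 kb came without 3KR library 2, and that of GR at MYC without wild-type library 1. Median fold percentiles ran from 12.6 to 60.1 (wild-type GR), 10.4 to 34.6 (3KR GR), 19.3 to 22.3 and 22.1 to 31.7 (wild-type and 3KR SUMO-2/3). The CDKN1A GR region and the SUMO-2/3 region over the CDKN1B start had no pair with reciprocal overlap of 50 percent, so they have no value there. Comparing only libraries of the same replicate number (a replicate block, chosen after seeing the data) leaves each mean almost as it was by construction: the CDKN1A GR value was -0.78, with pairs of -0.85 and -0.71 and an SD of 0.10 over 2 pairs, against 0.81 over 4. The labels do not say that a number marks a shared batch; across shared regions the gaps between duplicates correlated between lines with r = 0.42 for GR and 0.37 for SUMO-2/3. Weak sites near 50 tags or a fold of 8 may be listed or missed at this depth.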

Other observations

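At each of the 5 loci, the nearest sites outside the window of at least 2 groups overlapped each other. Their tags are unscaled and no centred ratio is given for them, so the values below do not compare the lines. A region 109.5 to 109.6 kb beyond the MYC start was listed for GR and SUMO-2/3 in both lines. GR had 116 and 247 tags in the wild-type and 305 and 228 in the 3KR libraries. SUMO-2/3 had 78 and 151 tags in the wild-type and 96 and 153 in the 3KR libraries. At CDKN1C, wild-type GR (112.07 kb, 108 and 213 tags) and SUMO-2/3 of both lines (wild-type 77 and 147 tags, 3KR 52 and 155) were listed at about 112 kb. At CCND1, SUMO-2/3 of both lines was listed at about 158 kb, with 74 and 128 tags in wild-type and 54 and 78 in 3KR libraries. At CDKN1A, SUMO-2/3 of both lines was listed at 153.88 and 153.87 kb, with 85 and 149 tags in wild-type and 91 and 152 in 3KR libraries. At CDKN1B, 3KR GR (166.12 kb; 230 and 189 tags) lay with 3KR SUMO-2/3 (165.83 kb; 114 and 245 tags). The control line's nearest GR sites lay 266.21 kb from the CDKN1B start, overlapping a wild-type SUMO-2/3 site, 945.28 kb from that of CDKN1A, and 1605.25, 2569.73 and 6683.05 kb from those of CCND1, MYC and CDKN1C.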
